A study of Mus musculus with 384 samples.

Results

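The 9 genes described here code for the enzymes that write, copy and remove DNA methylation in mouse pluripotent stem cells: Dnmt1, Dnmt3a, Dnmt3b, Dnmt3l, Uhrf1, Tet1, Tet2, Tet3 and Tdg. They were chosen by name, through the gene symbols paired with the Ensembl identifiers of the count table, and are 9 of its 31617 genes. All 9 passed the filter on low counts. The study asked whether formative stem (FS) cells, a state between naive embryonic stem cells and primed epiblast stem cells (EpiSCs), differ from EpiSCs as a population of single cells. Lines 5ar1 and 5ar2 are FS cells in AloXR medium, which the labels call A3XR, with 3 ng/ml activin, the tankyrase inhibitor XAV939 at 2 μM to block Wnt signalling, and the retinoic acid receptor inverse agonist BMS493 at 1 μM. Line AFX6 is an EpiSC line in AFX, a medium of 20 ng/ml activin, Fgf2 and 2 μM XAV939. Line AF32 is an EpiSC line in AF, which holds the same activin and Fgf2 but no XAV939. No line carries an engineered allele in the labels, and the strain and starting material of each line are not given in the sources used here. The study made such lines from the epiblast of dissected embryos of more than 1 strain and also from embryonic stem cells. FS and EpiSC therefore differ in medium as well as in state, and each EpiSC medium has 1 line.

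DNA methylation is laid down de novo by Dnmt3a and Dnmt3b, with Dnmt3l as a cofactor that has no catalytic activity of its own. At each round of DNA replication Uhrf1 recognises hemimethylated sites and recruits Dnmt1, which copies the mark to the new strand. Tet1, Tet2 and Tet3 oxidise methylcytosine, and Tdg excises the oxidised bases so that repair can restore cytosine. Genome-wide methylation is low in naive embryonic stem cells and rises around implantation, so this set of enzymes is of interest in the formative state.

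Cells were sorted singly and copied by Smart-seq2, which reads the whole transcript and carries no molecular identifiers. A cell was kept with at least 3000000 counts, which left 90 of 96 cells in line 5ar1, 90 of 96 in line 5ar2, 66 of 96 in line AFX6 and 80 of 96 in line AF32. Kept cells held between 3022666 and 6686007 counts. The median number of detected genes was 11371 in line 5ar1 and 11567.5 in line 5ar2, against 10328 in line AFX6 and 10330.5 in line AF32. Of the 8 epiblast markers examined, Pou5f1 was at 489.7 to 644 CPM (counts per 1000000 counts) in all lines. The FS lines were above the EpiSC lines for 5 of the 8, among them Fgf5 and Pou3f1, and below for 1, Nanog. Of 6 naive markers in the table none passed 3 CPM in any line. Of 5 primitive streak markers Eomes reached 61.3 CPM in 5ar1 and T 39.1 CPM in AF32, and the other 3 stayed under 8 CPM. A single cell held 99.1% of the T counts of AF32, and without it T was at 0.357 CPM. All 5 extraembryonic endoderm markers in the table were under 3 CPM. Of 4 neural markers Tubb3 reached 335 CPM in 5ar1 and the other 3 stayed under 9 CPM. Lines, not cells, are the replicates, and levels of a line are CPM of its summed counts unless stated.

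Dnmt3b was by far the most abundant transcript of the set and was higher in FS cells. Per kilobase of annotated exon its level was 439 CPM in line 5ar1, 281 in line 5ar2, 96.6 in line AFX6 and 121 in line AF32. Uhrf1 came next in every line, at 72.7, 56.1, 40.3 and 49.1 CPM per kilobase in the same order. Dnmt1 and Dnmt3a followed. They were 16.2 and 16.3 CPM per kilobase in AF32, a difference far inside the spread between lines, and Dnmt1 was ahead of Dnmt3a in the other lines. Tdg and Tet1 lay between 4.06 and 9.62 CPM per kilobase and changed places between lines. Tet2, Tet3 and Dnmt3l stayed under 2.5 CPM per kilobase. The exon length counts every annotated exon of a gene, so a gene with long exons that these cells do not use is understated.

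**Figure D1:**
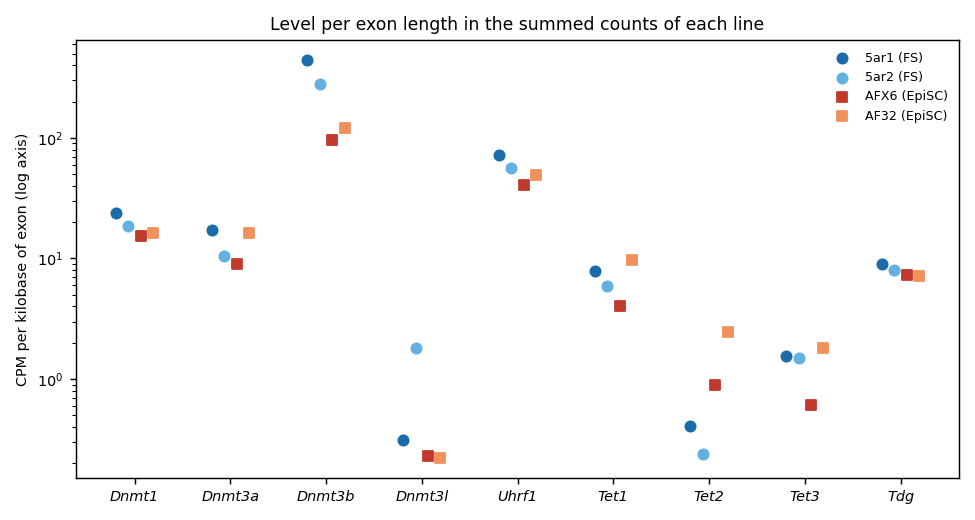
Levels of the 9 enzymes in the summed counts of each line, as CPM per kilobase of annotated exon on a log axis, with circles for FS lines and squares for EpiSC lines. Dnmt3b tops every line, from 96.6 in AFX6 to 439 in 5ar1, and Uhrf1 is second in every line.

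The FS lines stood clear of the EpiSC lines for 6 of the 9 enzymes. Dnmt1, Dnmt3b, Dnmt3l, Uhrf1 and Tdg were higher in both FS lines, which held for 26.8% of the 22606 genes tested. Tet2 was lower in both, which held for 21.5%. Dnmt3a, Tet1 and Tet3 overlapped between the states. With 2 lines against 2 an exact two-sided permutation test cannot go below 0.3333, so the separation of lines is a description. In edgeR's quasi-likelihood test on the summed counts 0 of the 9 enzymes were called, with the adjusted p required to be under 0.05 and the log2 fold change over 1.4 in size, as were 0 of all 22606 genes (0%). At an unadjusted p under 0.05 the test listed 2 of the 9, Dnmt3b and Tet2, and 16.1% of all genes. DESeq2 on the same sums called the same 2 enzymes, Dnmt3b higher in FS cells and Tet2 lower, where 3.3% of the genes to which it gave an adjusted p were called higher and 3.39% lower. limma on mean CPM per cell called 0 of the 9 and 0 genes. The median log2 fold change of FS over EpiSC was 0.33 over the 9 enzymes and -0.011 over all genes.

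Dnmt3b, the de novo enzyme of the early epiblast (chr2:153649450-153687730 on GRCm38, plus strand), had 2243 CPM in line 5ar1, 1434 in line 5ar2, 493 in line AFX6 and 616 in line AF32. Its FS mean was 1839 ± 572 CPM and its EpiSC mean 555 ± 86.5 CPM (SD, n = 2 lines each), a ratio of 3.32. The lower FS line was 2.329-fold above the higher EpiSC line. The edgeR log2 fold change was 1.723 ± 0.28 (SE, adjusted p = 0.19). DESeq2 gave 1.703 ± 0.34 with an adjusted p of 3.28e-05. Single cells ranged from 5.52 CPM through a median of 2263 to 4844 in 5ar1, and from 99.4 through 1402 to 2972 in 5ar2. In AFX6 they ranged from 2.306 through a median of 318 to 1997, and in AF32 from 1.771 through 581 to 1777. The cells of the 2 states overlapped although the lower quartile of 5ar2, 1003 CPM, was above the upper quartiles of AFX6 and AF32, 732 and 871 CPM. The coefficient of variation between cells came to 0.462 in line 5ar1 and 0.441 in line 5ar2, and to 0.847 in line AFX6 and 0.659 in line AF32.

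Dnmt3b was read with a near copy in the genome. Of the 50-letter words of its transcripts 9.81% also occur in Dnmt3c, its rodent paralog in the male germline, which was at most 0.0603 CPM in any line.

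A few cells had almost no Dnmt3b. Under 10% of their line's median lay 3 of 90 cells in line 5ar1, 1 of 90 in line 5ar2, 3 of 66 in line AFX6 and 3 of 80 in line AF32. In 5ar1 all 3 were among the cells with few detected genes, and their Pou5f1, the core pluripotency factor, had a median of 3.68 CPM against 629.9 in the line. The cell of 5ar2 had 2.05 CPM of Pou5f1. In AFX6 the 3 cells kept Pou5f1 at 196 to 626 CPM. In AF32 they ranged from 2.559 to 208 CPM.

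Dnmt3a, the other de novo enzyme (chr12:3806007-3914443, plus strand), did not follow the states. Its level was 285 CPM in line 5ar1, 173 in line 5ar2, 151 in line AFX6 and 271 in line AF32, so that 1 line of each state was high. The log2 fold change of FS over EpiSC was 0.12 ± 0.39 (SE, edgeR adjusted p = 0.94), and it turned to -0.30 without 5ar1 and to -0.23 without AFX6. Single cells ran from 23.6 through a median of 244 to 1125 CPM in 5ar1 and from 1.932 through 139 to 520 CPM in AFX6. The balance between the 2 enzymes differed, but it follows from their levels and is not a separate result. Per exon length Dnmt3b made up 96.2% of the sum of both in line 5ar1 and 96.4% in line 5ar2, against 91.4% in line AFX6 and 88.1% in line AF32. In the median cell the share was 96.3% in line 5ar1, 96.6% in line 5ar2, 89.7% in line AFX6 and 88.7% in line AF32. The share varied more between EpiSCs. Its lower and upper quartiles were 83.5% and 95.1% in AFX6 and 78.6% and 93.8% in AF32, against 94.8% and 97.5% in 5ar1. In the FS lines it was nearer to its upper limit, which leaves less room to vary.

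Dnmt3l, the catalytically inactive cofactor (chr10:78041947-78063622, plus strand), was scarce in all lines. Its level was 0.935 CPM in line 5ar1, 5.36 in line 5ar2, 0.682 in line AFX6 and 0.663 in line AF32. Reads were found in 5 of 90 cells in line 5ar1 (5.56%, exact 95% interval 1.828% to 12.49%), 18 of 90 in line 5ar2 (20.0%, 12.3% to 29.8%), 4 of 66 in line AFX6 (6.06%, 1.676% to 14.8%) and 7 of 80 in line AF32 (8.75%, 3.59% to 17.2%). These intervals cover counting error only. After thinning every cell to 1000000 counts the numbers were 2, 12, 3 and 1 cells. A single cell held 70.2% of the Dnmt3l counts of 5ar1, 98.7% of those of AFX6 and 97.5% of those of AF32, but 19.7% of those of 5ar2. The log2 fold change was 2.224 ± 1.054 (SE, edgeR adjusted p = 0.42). With mean CPM per cell, with the deposited normalized values or after thinning the lines of the states overlapped. Between the FS lines Dnmt3l was the single enzyme past 2-fold, 5.73-fold higher in 5ar2 (interval 5.15 to 6.386, counting error only), where 12.6% of all genes were over 2-fold higher in 5ar2 and 12.6% over 2-fold lower. Without the highest cell of each line the level was 0.282 CPM in 5ar1 and 4.36 CPM in 5ar2. Exons of Dnmt3l share 67 bases with Aire on the opposite strand, and whether counting used the strand is not given in the sources used here.

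The maintenance pair was higher in FS cells by a smaller margin. Uhrf1, the reader of hemimethylated DNA (chr17:56303321-56323486, plus strand), had 309.8 CPM in line 5ar1, 239 in line 5ar2, 171 in line AFX6 and 209 in line AF32. Its log2 fold change was 0.52 ± 0.21 (SE, edgeR adjusted p = 0.35). Dnmt1, the maintenance methyltransferase (chr9:20907209-20959888, minus strand), had 177, 136, 114 and 119.8 CPM in the same lines. Its log2 fold change was 0.41 ± 0.20 (SE, edgeR adjusted p = 0.43). The lower FS line exceeded the higher EpiSC line 1.136-fold for Dnmt1 and 1.142-fold for Uhrf1. That is less than the ratio of the 2 FS lines, 1.301 for Dnmt1 and 1.298 for Uhrf1.

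Some cells had almost no Dnmt1 or Uhrf1. Under 10% of the line median for Dnmt1 were 3 of 90 cells in line 5ar1, 0 of 90 in line 5ar2, 11 of 66 in line AFX6 and 13 of 80 in line AF32. For Uhrf1 these were 5, 1, 11 and 11 cells. Low cells were common for genes of similar level in AFX6, where genes with a median within 1.5 times that of Dnmt1 had a median of 11 such cells, and 53.0% of them had at least as many as Dnmt1. In AF32 that median was 6 cells, and 16.4% of the genes had at least 13. For Uhrf1 12.6% of the genes of like level had at least as many low cells in AFX6 and 7.94% in AF32. In 5ar1 under 2% of such genes had at least as many as its 5, against a median of 1, and 3 of these 5 cells had few detected genes. The cells low for both genes numbered 5 in AFX6 and 6 in AF32. Cells low for Uhrf1 had less of the summed G1/S genes, with medians of 2141 against 4147 CPM in the rest of AFX6 and 1534 against 5752 CPM in the rest of AF32. In AF32 4 of the 11 had few detected genes. In AFX6 0 of all 66 kept cells were in that class, so it cannot mark low cells there. The median number of detected genes was 9385 in the cells low for Uhrf1 against 10580 in the rest of AFX6. In AF32 it was 9763 against 10415. Dnmt3a, at a median of 139 CPM in AFX6, had 2 such cells there and 3 in AF32.

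**Figure D2:**
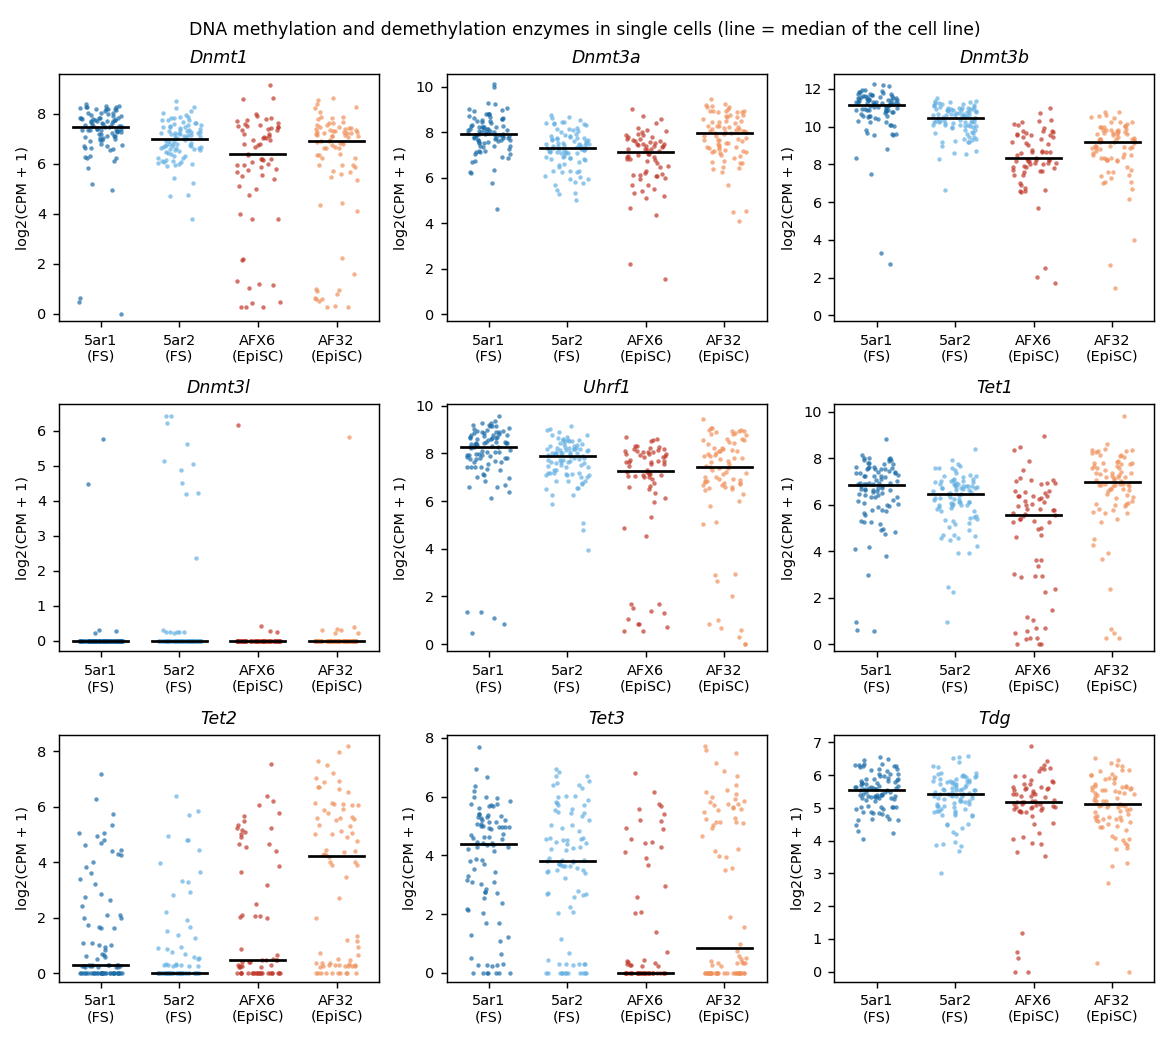
Level of each enzyme in every kept cell, as log2(CPM + 1), in the FS lines 5ar1 and 5ar2 and the EpiSC lines AFX6 and AF32, with a bar at the median of each line. Dnmt3b is higher in FS cells. Dnmt1 and Uhrf1 have a tail of cells near 0 in the EpiSC lines, as does Tet1 in AFX6. Dnmt3l, Tet2 and Tet3 are at or near 0 in many cells.

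The 3 Tet genes were the enzymes that differed most between the EpiSC lines. Tet1 (chr10:62804570-62908996, minus strand), the main Tet enzyme of pluripotent cells, had 121 CPM in line 5ar1, 91.0 in line 5ar2, 62.8 in line AFX6 and 149 in line AF32. Both FS lines lay between the EpiSC lines, and the log2 fold change of FS over EpiSC was 0.0083 ± 0.46 (SE, edgeR adjusted p = 0.997). Tet3 (chr6:83362373-83459084, minus strand) had 25.8, 25.0, 10.1 and 30.4 CPM in the same order, again with the FS lines in between. Its log2 fold change was 0.33 ± 0.57 (SE, edgeR adjusted p = 0.87). It was -0.24 without AFX6.

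Tet2 (chr3:133463679-133545139, minus strand) was the single enzyme that was lower in both FS lines. It had 6.844 CPM in line 5ar1, 4.02 in line 5ar2, 15.2 in line AFX6 and 41.4 in line AF32. The lower EpiSC line was 2.219-fold above the higher FS line. The log2 fold change was -2.38 ± 0.62 (SE, edgeR adjusted p = 0.20), and DESeq2 gave -2.40 ± 0.62 with an adjusted p of 0.0022. Reads were found in 57 of 90 cells in line 5ar1 (63.3%, exact 95% interval 52.5% to 73.2%), 36 of 90 in line 5ar2 (40.0%, 29.8% to 50.9%), 44 of 66 in line AFX6 (66.7%, 54.0% to 77.8%) and 70 of 80 in line AF32 (87.5%, 78.2% to 93.8%). Both FS lines had a smaller share than both EpiSC lines, by little between 5ar1 and AFX6, whose intervals overlap. After thinning to 1000000 counts the shares were 42.2% and 28.9% in the FS lines and 48.5% and 71.3% in AFX6 and AF32. The median cell had 0.235 CPM in line 5ar1, 0 in line 5ar2, 0.39 in line AFX6 and 17.6 in line AF32, and the highest cell 146, 82.1, 184 and 293 CPM. A single cell held 16.0%, 22.4%, 17.4% and 8.44% of the counts of these lines.

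AF32 was 2.369-fold above AFX6 for Tet1 (interval 2.332 to 2.408), 2.727-fold for Tet2 (2.641 to 2.816) and 3.01-fold for Tet3 (2.895 to 3.13). Over 2-fold higher in AF32 were 20.9% of all genes and over 2-fold lower 17.1%, and among the 8122 genes with at least 20 CPM in any line 9.25% were over 2-fold higher in AF32. The other 6 enzymes were within 2-fold between these lines, with Dnmt3a at 1.796-fold (1.776 to 1.815) and Dnmt1 at 1.049-fold (1.034 to 1.063). The intervals cover counting error only, and with 1 line in each medium the medium and the line cannot be told apart. Reads of Tet3 were found in 32 of 66 cells of AFX6 (48.5%, 36.0% to 61.1%) and 52 of 80 of AF32 (65.0%, 53.5% to 75.3%), against 83 of 90 of 5ar1 (92.2%, 84.6% to 96.8%) and 78 of 90 of 5ar2 (86.7%, 77.9% to 92.9%). Although AF32 had the highest Tet3 level of the 4 lines, its reads came from fewer cells than in either FS line, with a median cell at 0.807 CPM against 20.0 in 5ar1. The share of cells with a read kept this order after thinning, at 83.3% in each FS line, 39.4% in AFX6 and 52.5% in AF32.

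Per exon length Tet1 made up 80.1% of the Tet transcripts in line 5ar1, 77.2% in line 5ar2, 73.0% in line AFX6 and 69.2% in line AF32. Tet2 made up 4.14%, 3.13%, 16.2% and 17.7%. Tet3 made up 15.8%, 19.7%, 10.9% and 13.1%. The FS lines had the larger share of Tet1 and Tet3 and the smaller share of Tet2. The lines of the states did not overlap for these 3 shares. As the 3 shares add up to the whole, they are not separate results, and a smaller Tet2 share leaves more to the others. The levels of Tet1 and Tet3 themselves overlapped between the states.

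Tdg, the glycosylase (chr10:82629828-82650799, plus strand), had the narrowest range over the lines, 1.268-fold from the lowest to the highest. It had 48.4 CPM in line 5ar1, 43.3 in line 5ar2, 38.9 in line AFX6 and 38.1 in line AF32, with a log2 fold change of 0.24 ± 0.20 (SE, edgeR adjusted p = 0.67). Reads were found in 90 of 90 cells of both FS lines, 64 of 66 of AFX6 and 79 of 80 of AF32. Its counts are uncertain. The processed pseudogene Gm9855 shares 15.8% of the 50-letter words of Tdg transcripts, had 48.0, 39.1, 36.1 and 38.5 CPM in the same lines, and had a mean Spearman's rho with Tdg between cells of 0.86 over the 4 lines, where the next gene reached 0.23. Reads from either locus that map to a single place can be split between them. Tdg-ps, which shares 29.4% of the words, was at most 1.128 CPM. Exons of Tdg share 367 bases with Glt8d2 on the opposite strand.

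Within a line the enzymes covaried weakly from cell to cell. Spearman's rho of CPM was computed over the cells of 1 line at a time for the 36 pairs of enzymes and is given without a p, as cells of 1 culture do not replicate it. The median over the pairs was 0.037 in line 5ar1, 0.085 in line 5ar2, 0.036 in line AFX6 and about 0 in line AF32. For comparison, the 7 enzymes with at least 20 CPM over all kept cells had a median rho of 0.020 with the 7036 genes of that level. The 36 pairs also include Dnmt3l and Tet2, which are under that level. With the others of these 7, Dnmt1 had a median rho of 0.126, against 0.036 with all such genes. For Dnmt3b these were 0.133 and 0.042, for Dnmt3a 0.087 and 0.010, for Tet1 0.056 and 0.020 and for Tet3 0.039 and 0.0047. The order was the other way for Uhrf1, 0.025 and 0.040, and for Tdg, -0.057 and 0.00084. Of the 36 pairs 6 were above 0 in all 4 lines and 3 below 0 in all 4. The points of a line share its culture and library preparation, differ in depth, and number 66 to 90.

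**Figure D3:**
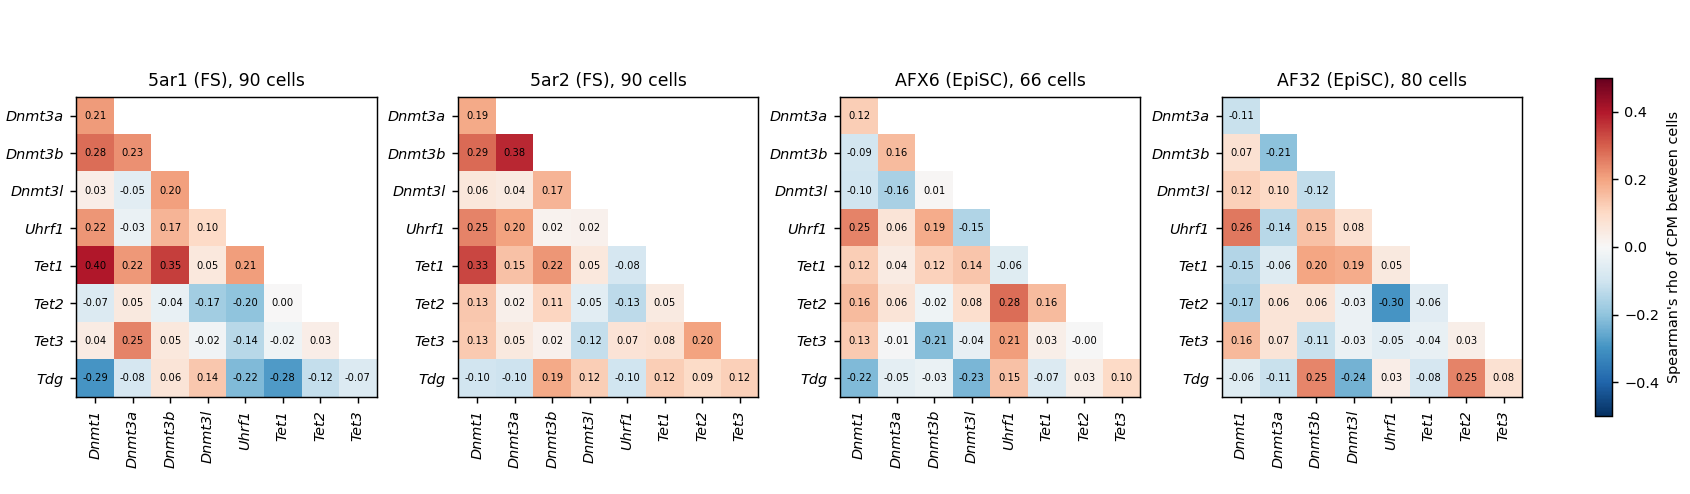
Spearman's rho of CPM between the cells of each line for the 36 pairs of enzymes, from -0.5 in blue to 0.5 in red. Dnmt1 and Uhrf1 are the pair with the highest mean, at 0.22 to 0.26 in the 4 lines, while Dnmt1 with Tet1 and Dnmt3a with Dnmt3b are above 0 in both FS lines and below 0 in AF32.

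Dnmt1 and Uhrf1, which act together at the replication fork, were the pair with the highest mean. Their rho was 0.22 in line 5ar1, 0.25 in line 5ar2, 0.25 in line AFX6 and 0.26 in line AF32. With the summed G1/S and G2/M genes held constant in a partial rank correlation the mean of 0.25 became 0.086. Dnmt3b and Tet1 had 0.35, 0.22, 0.12 and 0.20 in the same order. Dnmt1 and Tet1 had 0.40 and 0.33 in the FS lines, 0.12 in AFX6 and -0.15 in AF32. Dnmt3a and Dnmt3b had 0.23 and 0.38 in the FS lines, 0.16 in AFX6 and -0.21 in AF32. The lowest means were those of Dnmt1 with Tdg, at -0.29, -0.10, -0.22 and -0.06, and of Uhrf1 with Tet2, at -0.20, -0.13, 0.28 and -0.30. Dnmt3l was read in at most 20.0% of the cells of a line, too few for a weak rho to be informative. Tet2 was read in 40.0% of cells in 5ar2 to 87.5% in AF32, and Tet3 in 48.5% in AFX6 to 92.2% in 5ar1. Cells without a read are tied in rank, which limits the rho of these genes.

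The maintenance pair had its highest correlations with genes of DNA replication. Uhrf1 had a rho of 0.59 in line 5ar1, 0.55 in line 5ar2, 0.37 in line AFX6 and 0.46 in line AF32 with the summed CPM of 25 G1/S genes, such as the Mcm helicase subunits and the ribonucleotide reductase subunit Rrm2. Dnmt1 had 0.29, 0.29, 0.43 and 0.41 with the same sum. Dnmt3b had 0.14, 0.33, 0.34 and 0.19. The other 6 enzymes had means over the lines between -0.12 and 0.056. When the cells of a line were put into 3 equal bins by that sum, the median Uhrf1 level of the highest bin was 2.5-fold that of the lowest in line 5ar1, 2.07-fold in line 5ar2, 1.97-fold in line AFX6 and 2.226-fold in line AF32. For Dnmt1 the ratios were 1.408, 1.487, 2.953 and 3.00. For Dnmt3b they were 1.09, 1.307, 1.559 and 1.425. The rise was not always even, as in AF32 the middle bin had more Uhrf1 than the highest, 261 against 225 CPM. Dnmt3b was also higher in the middle bin than in the highest in 5ar1, 2401 against 2237 CPM, and in AF32, 773 against 509 CPM. With the sum of 25 G2/M genes Uhrf1 went opposite ways in the states, at -0.36 and -0.26 in the FS lines and 0.29 and 0.36 in AFX6 and AF32. The rho of the G1/S sum with the number of detected genes was 0.39 in AFX6 and 0.36 in AF32, against -0.13 and -0.26 in the FS lines. The part of detection in the EpiSC values, and of the relation between the sums in the Uhrf1 values, was not tested.

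The state difference of the pair stands beside a difference of the cycle genes themselves. Of the 25 G1/S genes the FS lines were above the EpiSC lines for 17 and below for 1, with a median log2 fold change of 0.56. Of the 25 G2/M genes they were above for 1 and below for 14, with a median of -0.34. Summed G1/S genes had 6892 CPM in line 5ar1 and 6733 in line 5ar2 against 4181 in line AFX6 and 5383 in line AF32. The part of this difference in the higher Uhrf1 and Dnmt1 of FS cells was not tested.

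**Figure D4:**
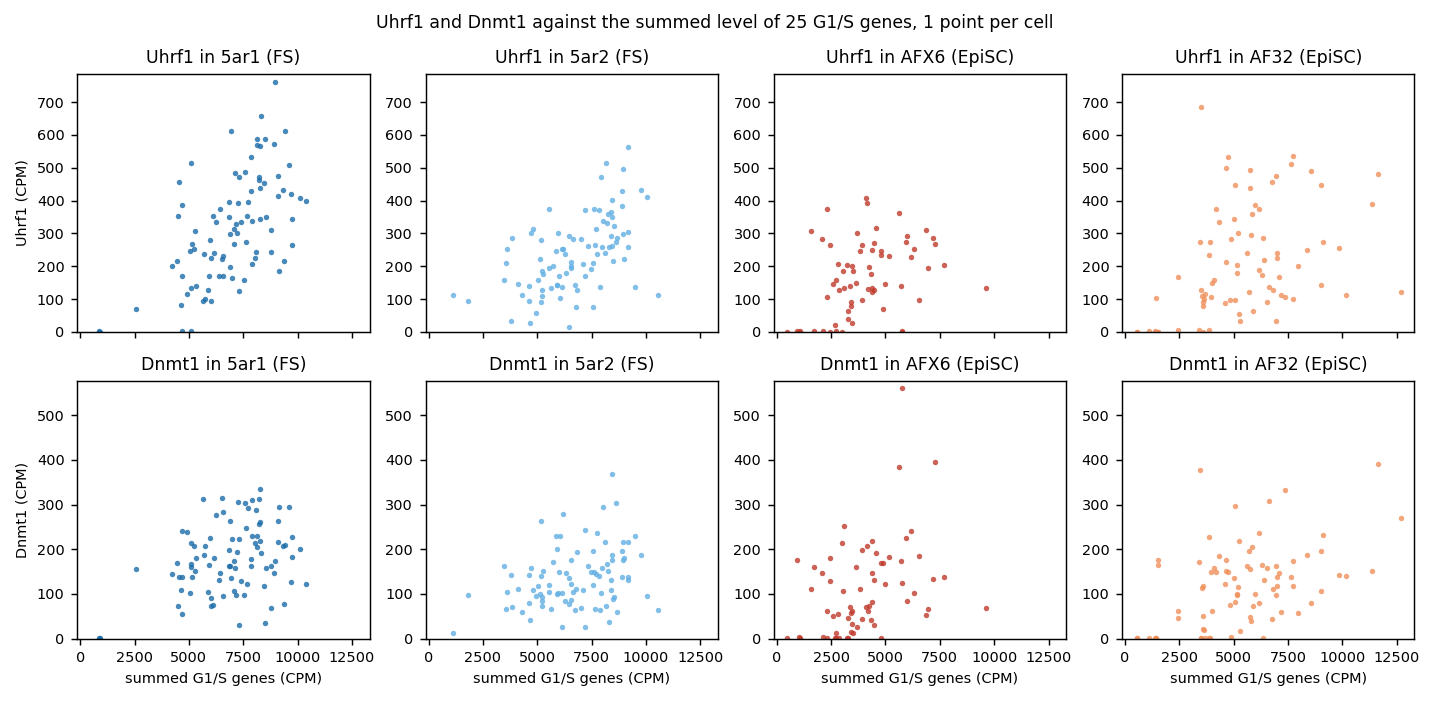
Uhrf1 in the upper row and Dnmt1 in the lower row, in CPM, against the summed CPM of 25 G1/S genes, with 1 point for each kept cell and 1 panel for each line. Uhrf1 tends to be higher in cells with more G1/S transcripts in all 4 lines, with a rho of 0.37 in AFX6 to 0.59 in 5ar1. Some EpiSCs lie at or near 0.

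The genes most like each enzyme from cell to cell were named by their mean rho over the 4 lines. For Uhrf1 they were Pcna-ps2 (0.42), Pcna (0.41), the sliding clamp of the replication fork, Rrm2 (0.41), the replication licensing factor Cdc6 (0.40) and Mcm5 (0.39). Pcna-ps2 is annotated as a processed pseudogene, and its reads and those of Pcna may not be told apart. For Dnmt1 they were the DNA ligase of the replication fork Lig1 (0.36), the histone acetyltransferase Hat1 (0.31), the recombination gene Rad54l (0.31) and the licensing factor Cdt1 (0.30). Of the first 50 genes 16 for Uhrf1 and 11 for Dnmt1 were among the 23 G1/S genes of at least 20 CPM, and 0 for either among the 25 G2/M genes. For Dnmt3b they were the kinase Pim2 (0.48), the lactate dehydrogenase subunit Ldha (0.44), the carbonic anhydrase Car14 (0.38), the phosphofructokinase subunit Pfkl (0.38) and the transcription factor Myb (0.37), with 2 of the first 50 in the G1/S list. Pim2 was at 0.43 to 0.57 in all 4 lines, and Ldha ran from 0.28 in AFX6 to 0.65 in 5ar1. Dnmt3b itself had its nearest enzyme, Tet1, at rank 174 of 7035.

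The other enzymes had weaker neighbours. For Tet1 they were Haspin, Utf1, Fzd7, Pim2 and Trp53bp1 with means of 0.23 to 0.27, and Dnmt3b was its nearest enzyme at rank 13. For Dnmt3a they were Tspan5, Bmyc, Tmem87b, Drosha and Tsr3 at 0.22 to 0.27. For Tet3 they were Rbm39, Scaf11, Herpud1, Rb1cc1 and 6330403K07Rik at 0.20 to 0.25. Apart from Gm9855, Tdg had Thumpd1, Cct6a, Rhot1 and Nampt at 0.21 to 0.23. None of these 4 enzymes had a G1/S gene among its first 50.

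Factors of the E2F family switch on genes of S phase, and their words were looked for in the promoters of the enzymes. The words TTTCCCGC, TTTGGCGC, TTTCGCGC and TTTGCCGC were searched on both strands in the RefSeq promoter windows of GRCm38.p6, which run from 250 bases before to 50 bases after a start. All 9 enzymes matched an entry, some with several starts. Dnmt1 and Uhrf1 were the 2 enzymes with a word. Of all 32851 windows 2.265% hold one. Counted by gene, 2.6% of 27025 genes hold one in any window, as do 9 of 21 G1/S genes with a window and 2 of 21 G2/M genes. Every word searched contains a CpG. The windows of Dnmt1 and Uhrf1 with a word hold 33 CpG sites each, where the median window holds 7. The share among windows of like CpG content was not computed, so these shares may be too low a background. Of the 5 genes nearest to Dnmt1 4 had a window, and 2 of these, Lig1 and Cdt1, held a word. For Uhrf1 4 had a window and 2, Cdc6 and Mcm5, held one. Words of Dnmt1 and Uhrf1 are shown with those of these neighbours, 5′ to 3′ along the gene. The word is in capitals on whichever strand it lies.
Uhrf1 chr17:56304117-56304146: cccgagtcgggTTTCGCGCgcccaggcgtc
Dnmt1 chr9:20952824-20952853: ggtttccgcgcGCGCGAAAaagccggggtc
Dnmt1 chr9:20952574-20952603: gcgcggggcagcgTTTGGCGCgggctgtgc
Lig1 chr7:13278841-13278870: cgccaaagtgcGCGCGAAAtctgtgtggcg
Cdt1 chr8:122568035-122568064: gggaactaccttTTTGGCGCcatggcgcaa
Cdc6 chr11:98908002-98908031: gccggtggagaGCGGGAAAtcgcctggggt
Mcm5 chr8:75109345-75109374: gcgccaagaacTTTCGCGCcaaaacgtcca
The Uhrf1, Cdc6 and Mcm5 words lie before the start outside any annotated exon, and those of Dnmt1, Lig1 and Cdt1 lie in annotated exons. Mcm5 holds a further word that overlaps the one shown. Of the named neighbours of the other 5 enzymes with a list 0 held a word. A match in letters is a description and says nothing on whether a factor binds there.

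The stretch before the CpG-rich start of Uhrf1 (chr17:56304113-56304312, plus strand) holds 25 CpG sites in 200 bases and is shown with its word in capitals, as Uhrf1 had the highest rho with the G1/S sum.
Uhrf1: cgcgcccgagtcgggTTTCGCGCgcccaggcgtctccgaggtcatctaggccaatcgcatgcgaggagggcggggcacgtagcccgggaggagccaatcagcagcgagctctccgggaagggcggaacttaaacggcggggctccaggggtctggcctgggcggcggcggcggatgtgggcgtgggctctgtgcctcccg
Over all starts of the enzymes the windows ranged from 2 CpG sites at a start of Dnmt1 to 57 at that of Tet2, where the median window of the genome held 7. At the start of Dnmt3b there were 30, and at the starts of Dnmt3a up to 47.

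The summed level of each enzyme's own chromosome was set beside the enzyme. Expression of chromosome 2, which carries Dnmt3b, was over 1.2 times the autosomal median in 29 of 80 cells of AF32 and 0, 0 and 2 cells of 5ar1, 5ar2 and AFX6. Chromosome 10, which carries Tet1, Tdg and Dnmt3l, was over it in 18 of 80 cells of AF32. Within AF32 the rho of Dnmt3b with its chromosome was -0.071, that of Tet1 0.14 and that of Tdg 0.070. Over the 4 lines the mean rho of an enzyme with its chromosome was between -0.16 for Dnmt1 and 0.086 for Tet1.

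Genes that work with these enzymes are given by lists, each with the number of genes for which the FS lines were above or below the EpiSC lines. edgeR called 0 genes of these lists between the states. Among the 8122 genes of at least 20 CPM in any line the FS lines were above for 28.7% and below for 28.1%.

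Of 10 partners of maintenance methylation 7 were above and 0 below, with a median log2 fold change of 0.28. The deacetylase Hdac1 had 352 CPM in line 5ar1, 298 in line 5ar2, 189 in line AFX6 and 199 in line AF32 (0.74 ± 0.17, SE, edgeR adjusted p = 0.19). Pcna had 372, 389, 207 and 361 CPM, and the insulator protein Ctcf 100.3, 104, 56.4 and 91.3 CPM. Of 8 genes listed as readers of methylated DNA or as members of their families 2 were above and 2 below, with a median of -0.018. Without the top cell of each line 1 was above and 2 below. Mbd3 was higher in FS cells, at 189.7 and 107 against 76.1 and 93.3 CPM.

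Of 10 genes whose histone marks guide methylation 4 were above and 0 below, with a median of 0.11. Trim28, the corepressor of KRAB zinc finger proteins, had 1314 CPM in line 5ar1 and 1122 in line 5ar2 against 533 in line AFX6 and 642 in line AF32 (1.05 ± 0.18, SE, edgeR adjusted p = 0.19). The histone H3K9 methyltransferase Ehmt2 had 55.7 and 41.2 against 33.2 and 25.2 CPM, and the demethylase Kdm1a 116 and 82.4 against 67.5 and 78.5 CPM.

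Of 21 genes of base excision repair and Tet cofactors 5 were above and 8 below, with a median of -0.49. The glycosylase Neil1 had 9.52 and 13.0 CPM against 28.5 and 35.7 (-1.51 ± 0.31, SE, edgeR adjusted p = 0.19), and DESeq2 called it lower with an adjusted p of 0.00025. The uracil glycosylase Smug1 had 11.1 and 14.9 against 30.1 and 22.3 CPM (edgeR adjusted p = 0.26). Gadd45b had 11.5 and 30.3 against 82.4 and 35.3 CPM (edgeR adjusted p = 0.40, DESeq2 adjusted p = 0.11). Its order rests on single cells, as without the cell with the most counts in each line it was at 7.78 and 26.3 against 72.3 and 22.0 CPM, which overlap.

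Of 12 genes that supply the methyl donor S-adenosylmethionine 6 were above and 2 below, with a median of 0.42. Mat2a, the catalytic subunit of the enzyme that makes the donor, had 956 CPM in line 5ar1, 785 in line 5ar2, 157 in line AFX6 and 247 in line AF32 (2.105 ± 0.28, SE, edgeR adjusted p = 0.19, DESeq2 adjusted p = 1.06e-07). The mitochondrial folate enzyme Mthfd2 had 379 and 368 CPM against 108 and 135 (1.614 ± 0.18, SE, edgeR adjusted p = 0.19, DESeq2 adjusted p = 4.51e-09). Psat1 of serine synthesis had 1313 and 1511 against 468 and 658 CPM (1.325 ± 0.22, SE, edgeR adjusted p = 0.19). DESeq2 called Mat2a and Mthfd2 and 0 genes of the list in the other direction.

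Of 4 genes that restrain de novo methylation in naive cells 3 were in the table, and none exceeded 1.4 CPM in any line. Klf2, the single one tested, was below in the FS lines, at 0.214 and 0.506 CPM against 0.914 and 1.313 CPM. A single cell held 77.6% of its counts in AFX6, and without the top cell of each line the states overlapped. Of 15 germline genes known to be silenced by promoter methylation 7 were in the table. The FS lines were above for 3 of the 4 that passed the filter on low counts, and for 1, Sycp3, without the top cell of each line. Sycp3, of the synaptonemal complex, had 3.88 and 8.72 CPM in the FS lines against 1.224 and 0.343 CPM (2.99 ± 0.95, SE, edgeR adjusted p = 0.25), and DESeq2 called it higher with an adjusted p of 0.012.

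**Figure D5:**
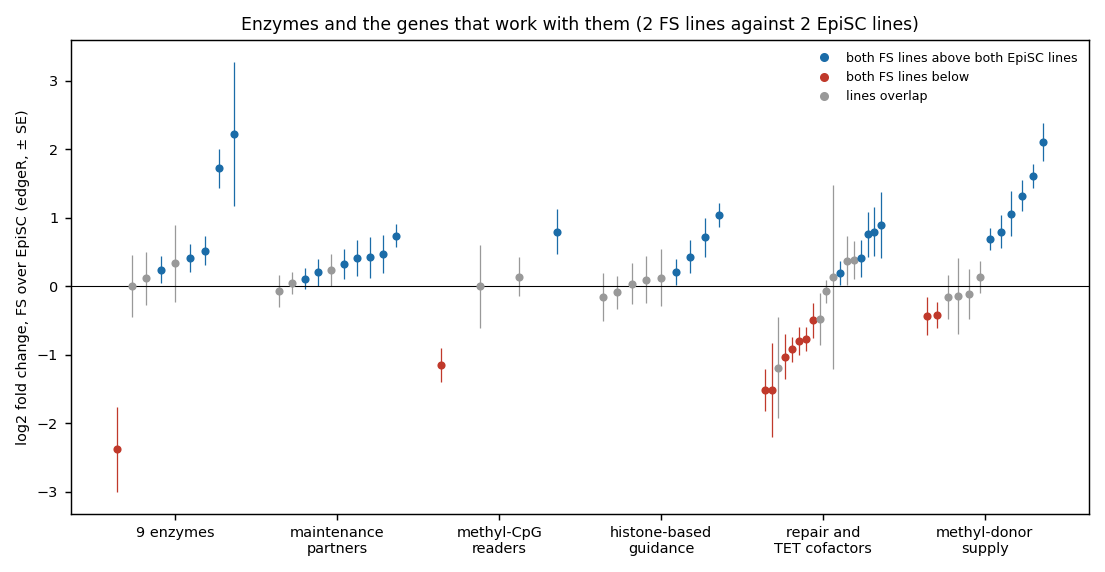
Log2 fold change of FS over EpiSC from edgeR with its SE, for the 9 enzymes and for the genes of 5 related lists that reached 20 CPM in any line, coloured by whether the FS lines stood above or below the EpiSC lines. Dnmt3b and Dnmt3l lead the enzymes upward and Tet2 downward, and Mat2a leads the methyl-donor genes at 2.105. Dnmt3l is scarce, at most 5.36 CPM in a line (5ar2), and its SE is 1.054.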

How the data were processed

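Single mouse cells were sorted into plates and prepared by Smart-seq2, 96 from each of 4 lines. The authors aligned the reads to GRCm38.p6 with STAR 2.7.3a and ran featureCounts 2.0.0 on those reads that map to a single place, per the submitters' processing notes in the labels. They deposited raw counts for 31617 genes in all cells and, for the 326 cells with at least 3000000 counts, a normalized score from sctransform in whole numbers. The alignment and the counting were not repeated, and whether the counting used strand is not given in the sources used here. Symbols came from a gene name table (31565 identifiers matched), positions and exon lengths from GENCODE M21 on GRCm38, and promoter sequences from RefSeq.

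CPM is counts per 1000000 of a cell or of a line's summed counts. Lines were the replicates. With 2 lines a state, p-values measure the spread between these lines only. Counts summed per line were fitted over all 22606 genes that passed filterByExpr with edgeR 4.0.16 (TMM, quasi-likelihood test) in R 4.3.3, with Benjamini-Hochberg adjustment, calls needing an adjusted p under 0.05 and a log2 fold change over 1.4 in size. DESeq2 1.42.0 and limma 3.58.1 on log2(mean CPM + 1) were alternatives. Data of the comparison of FS cells with EpiSCs were simulated with 8-fold changes in 200 of 30577 genes. The fit recovered 200 of them at a dispersion of 0.05 and 0 at 0.653, the common dispersion estimated over all genes. Every simulated gene had the same dispersion, while real genes differ in theirs. The simulation therefore does not tell which change could be recovered for a given enzyme. Reads here carry no molecular identifiers, so exact Clopper-Pearson intervals of shares and conditional intervals of folds cover counting error only. Correlations and figures used Python with scipy 1.17.1 and matplotlib 3.10.9. Cells with few detected genes lay over 3 median absolute deviations under their line's median. Chromosome levels were means of protein-coding genes of at least 20 CPM, the enzymes left out, relative to their own mean, with values above 3 set to 3, divided by the median of the 19 autosomes.

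The enzymes, the gene lists (maintenance partners, readers, histone guidance, repair, methyl donor, restraint, germline, G1/S, G2/M and cell type markers) and the tests were chosen with earlier results of these data known. Pairs named are the 4 with the highest and 2 with the lowest mean rho, and neighbours the 5 genes with the highest mean rho among genes of at least 20 CPM. From each of the first 7 lists at most 3 genes were named, those with the largest change among genes whose lines did not overlap and that reached 20 CPM in any line (5 CPM for the last 2 of these). Words of E2F, low cells, detection and chromosome levels were added after values were seen, as were the other marker genes named. Some listed genes were not analysed here, and some genes that the rule names are not reported here.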

Additional observations from a re-analysis of the deposited data

How the results depend on the processing

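No paired analysis was possible because the numbers in the labels name single cells, not shared cultures. edgeR called 0 genes and 0 of the 9 enzymes with DESeq2 size factors, without a filter on low counts, at an adjusted p under 0.05 alone, at 4000000 or 1000000 counts a cell, after thinning, without cells of few detected genes (added after seeing the data) and with each line left out (0 to 0). limma also called 0 of each. DESeq2 called 1454 genes and 2 enzymes, Dnmt3b and Tet2. When a line is left out, the lone line is assumed to vary like the other state. Over all alternatives the log2 fold change kept its sign for Dnmt1 (0.19 to 0.58), Dnmt3b (1.348 to 2.00), Dnmt3l (0.46 to 2.97), Uhrf1 (0.30 to 0.69), Tet2 (-2.92 to -1.52) and Tdg (0.14 to 0.31). It reversed for Dnmt3a without 5ar1 (-0.30) and without AFX6 (-0.23), for Tet3 without AFX6 (-0.24), and for Tet1 with DESeq2 size factors (-0.016), DESeq2 (-0.016), thinning (-0.036), without 5ar1 (-0.23) and without AFX6 (-0.47). The cause was not tested. With a line left out the value ranged from -0.30 to 0.57 for Dnmt3a, from -0.47 to 0.72 for Tet1 and from -0.24 to 1.299 for Tet3. The number of enzymes whose lines did not overlap was 5 or 6 under every alternative, Dnmt3l being the one lost. Between AF32 and AFX6 3 or 4 enzymes passed 2-fold, Dnmt3l being the one added at 4000000 counts, and between the FS lines 1. Without the cell with the most counts of a gene in each line, added after seeing the data, these were 6, 3 and 1. In the lists it moved the genes above in FS cells from 2 to 1 for readers and from 3 to 1 for germline genes, and those below from 1 to 0 for the G1/S and restraint lists, from 8 to 7 for repair and from 14 to 12 for G2/M. The median rho over the pairs was 0.025 to 0.051 with a line left out, against 0.033. The mean rho of Dnmt1 and Uhrf1, 0.25, was 0.39 as Pearson's r of log2(CPM + 1), 0.22 given the number of detected genes, 0.19 without cells of few detected genes and 0.086 given the G1/S and G2/M sums. For Dnmt1 and Tdg, -0.17 was -0.025 as Pearson's r.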
